A study of Mus musculus with 2 samples.

Results

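CpG-dense promoters are described here as the 5093 transcription start sites (TSSs) of autosomal protein-coding genes with at least 30 covered CpG sites within 500 bp, out of 20807 autosomal protein-coding TSSs in GENCODE vM21. A CpG site counted as covered when it had at least 5 calls in either replicate, the minimum of the deposited tables. Of the remaining TSSs, 14386 had 1 to 29 covered CpG sites and are called the other promoters, and 1328 had none. The rule used the number of covered CpG sites and no CpG-state level. It is stricter than CpG content alone, since 12199 TSSs had 30 or more CpG sites in the genome sequence and 7106 of these had fewer than 30 covered.

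The data are SCoTCH-seq calls from the genomic DNA of E14 mouse embryonic stem cells, an established cell line, grown on gelatin with serum and LIF. There were 2 libraries of 1 condition, from different passages of the same line, named replicate 1 and replicate 2, and there was no treated or mutant group. SCoTCH-seq tethers both strands of a DNA fragment, so that each read pair gives the state of both cytosines of a CpG site, with C for unmodified cytosine, M for 5-methylcytosine and H for 5-hydroxymethylcytosine (5hmC). The labels give 10% FBS in the medium and the study's methods give another percentage, and which applies is not known. The 9 CpG states are named with the plus strand first and are grouped here as CC, MC/CM, MM, HC/CH, HM/MH and HH, so that HC/CH is 5hmC opposite unmodified cytosine and HM/MH is 5hmC opposite 5-methylcytosine. A level is the mean over CpG sites of the percentage of calls in that state. The core of a promoter is the region within 500 bp of the TSS, and the shores are the regions from 500 to 2000 bp on both sides. With 1 condition, no test between groups of samples was possible.

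In vertebrates, CpG-rich promoters are usually kept free of DNA methylation while most other CpG sites are methylated by the DNMT enzymes. TET dioxygenases oxidize 5-methylcytosine to 5hmC, and maintenance methylation after replication restores 5-methylcytosine on the new strand. The flanks of unmethylated CpG islands, often called shores, are where methylation changes most between cell types.

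The members had a median of 38 covered CpG sites within 500 bp, with a range of 30 to 104, and a median of 66 CpG sites in the genome sequence. Their median GC content over the core was 59.1%. Replicate 1 covered a median of 36 core sites and replicate 2 a median of 11, and 122 members had no covered core site in replicate 2. Another protein-coding TSS lay within 3000 bp of 1599 members, so that neighbouring members can share CpG sites. The genome-wide depth was a mean of 10.49 calls per covered site in replicate 1 and 6.365 in replicate 2. The cores of the members held 1594138 calls at 191635 pairs of a site and a promoter in replicate 1, and 374954 calls at 60707 pairs in replicate 2.

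The sequences below show the contrast that the levels describe, from 250 bases before to 49 bases after the TSS on the coding strand. They were read from RefSeq's GRCm38.p6 at the GENCODE TSS. Capitals mark CpG sites at which most calls, summed over both replicates, were modified. Rpl9, which encodes a protein of the large ribosomal subunit, and Cry1, a circadian repressor, are shown as unmodified promoters. Cry1 was typical of the members in core CC and shore HC/CH only. Its core held 134 CpG sites in the genome sequence, against a median of 66. Hcar2, a receptor for niacin and ketone bodies, and Mrap, an accessory protein of the melanocortin receptor for ACTH, are shown because their core MM levels were the highest.
Rpl9 (chr5:65391395-65391694, minus strand): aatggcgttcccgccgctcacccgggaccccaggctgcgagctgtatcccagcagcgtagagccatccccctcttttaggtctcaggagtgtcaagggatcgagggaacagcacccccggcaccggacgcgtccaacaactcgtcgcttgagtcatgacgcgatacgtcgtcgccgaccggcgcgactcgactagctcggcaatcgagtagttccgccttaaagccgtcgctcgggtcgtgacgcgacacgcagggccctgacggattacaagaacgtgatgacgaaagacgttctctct
Cry1 (chr10:85185015-85185314, minus strand): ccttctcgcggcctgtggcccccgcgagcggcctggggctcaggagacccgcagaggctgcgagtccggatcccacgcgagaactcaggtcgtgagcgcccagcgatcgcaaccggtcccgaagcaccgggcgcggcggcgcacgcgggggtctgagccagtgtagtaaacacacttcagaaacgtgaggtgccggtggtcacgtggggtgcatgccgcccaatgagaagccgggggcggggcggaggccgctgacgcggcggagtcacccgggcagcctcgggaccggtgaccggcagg
Hcar2 (chr5:123865450-123865749, minus strand): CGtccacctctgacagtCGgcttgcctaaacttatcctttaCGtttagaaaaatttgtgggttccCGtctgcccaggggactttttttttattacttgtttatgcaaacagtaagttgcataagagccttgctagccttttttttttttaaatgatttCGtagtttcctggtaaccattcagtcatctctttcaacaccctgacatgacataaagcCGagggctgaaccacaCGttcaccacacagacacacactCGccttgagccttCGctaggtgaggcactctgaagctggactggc
Mrap (chr16:90737957-90738256, plus strand): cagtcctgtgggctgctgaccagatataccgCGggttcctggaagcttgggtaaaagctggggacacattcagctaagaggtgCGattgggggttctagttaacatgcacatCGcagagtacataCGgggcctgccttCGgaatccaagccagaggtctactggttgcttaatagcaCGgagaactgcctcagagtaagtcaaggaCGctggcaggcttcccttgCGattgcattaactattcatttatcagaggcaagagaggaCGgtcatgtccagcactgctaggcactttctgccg

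All 290 calls at the 34 covered sites of the Rpl9 window were CC. A count of 0 modified calls allows a share of up to 1.03% if the calls are taken as independent. In the Cry1 window, 112 of 113 calls at 18 covered sites were CC. The Hcar2 window holds only 9 CpG sites, and all 9 were mostly modified, with 68 MM, 16 MC/CM and 9 HC/CH calls among 104. In the Mrap window, 9 of the 10 covered sites were mostly modified, with 122 MM, 18 MC/CM, 10 HC/CH and 9 HM/MH calls among 192. Rpl9 and Cry1 held 37 and 38 CpG sites in the same length, so the modified pair met the rule through CpG sites that lie farther from the TSS. Rpl9 and Cry1 were themselves rich in CpG sites there, since the median of this window was 21 over 3050 members.

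Calhm6, a member of the calcium homeostasis modulator family of channels, had a high HC/CH level in both core and shores. Its sequence around the TSS and that of the 300 bases of its upstream shore with the most covered sites, taken in steps of 50 bp, are given below, on the coding strand, with capitals for CpG sites that carried at least 1 call with 5hmC.
Calhm6 (chr10:34127935-34128234, minus strand): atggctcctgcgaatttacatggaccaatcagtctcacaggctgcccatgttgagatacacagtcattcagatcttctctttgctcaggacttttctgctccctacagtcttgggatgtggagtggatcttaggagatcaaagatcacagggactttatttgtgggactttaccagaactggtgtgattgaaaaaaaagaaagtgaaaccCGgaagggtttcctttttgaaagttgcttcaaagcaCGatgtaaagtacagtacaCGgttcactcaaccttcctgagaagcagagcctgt
Calhm6 upstream shore (chr10:34129685-34129984, minus strand): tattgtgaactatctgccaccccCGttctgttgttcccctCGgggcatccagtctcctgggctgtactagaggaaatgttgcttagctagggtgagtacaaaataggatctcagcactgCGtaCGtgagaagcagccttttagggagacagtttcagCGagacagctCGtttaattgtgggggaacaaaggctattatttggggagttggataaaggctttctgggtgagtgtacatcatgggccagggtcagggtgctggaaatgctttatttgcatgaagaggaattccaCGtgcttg

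The Calhm6 TSS window holds 4 CpG sites, of which 3 carried a call with 5hmC. In its upstream window all 7 CpG sites carried such a call, and the 113 calls there comprised 51 MM, 25 CC, 18 HC/CH, 14 MC/CM and 5 HM/MH. The hydroxymethylated calls in that window were thus mainly HC/CH.

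The cores of CpG-dense promoters were almost wholly unmodified, and every modified state was higher in the shores. In replicate 1 the core CC level was 97.9% and in replicate 2 it was 96.6%, with a mean of 97.2% ± 0.898 (SD, n = 2). In the shores CC fell to 70.1% and 65.9%. MM was the main modified state of the shores, at 19% and 22.2%, against 0.998% and 1.56% in the cores. MC/CM rose from 0.489% and 0.843% in the cores to 5.35% and 6.76% in the shores.

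Hydroxymethylation followed the same direction. HC/CH was 0.447% in the cores of replicate 1 and 0.694% in those of replicate 2, and 3.38% in the shores of both. HM/MH was 0.154% and 0.254% in the cores and 1.91% and 1.56% in the shores. HH, with 5hmC on both strands, stayed at or below 0.225% in either region. Each of these shore-minus-core differences, HH left out, was positive on all 19 autosomes in each replicate (MM, MC/CM, HC/CH and HM/MH, exact two-sided sign-flip permutation test over autosomes, p = 3.81e-06, which is the smallest this test can give, and adjusted p = 4.40e-06). The autosomes are blocks within a library and not replicates of the condition. With shores of 500 to 1000 bp the differences were smaller, 7.32 points for MM in place of 19.3 and 1.52 for HC/CH in place of 2.81.

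The core levels were read against the spike-in controls. Core MM and HM/MH lay well above the error, since duplexes whose true state is CC gave 0.00593% and 0.0668% MM and 0.00324% and 0.0178% HM/MH. Unmethylated pUC19 DNA gave 0.0344% and 0.0859% HC/CH in replicates 1 and 2, and the CC duplexes gave 0.154% and 0.219%. After correction with the call rates of the replicate's own duplexes, core HC/CH was 0.306% and 0.503%, and core HM/MH was 0.105% and 0.22%. The same correction gave core MC/CM levels of -0.183% and -0.554%, below 0, because the duplexes miscalled CC as MC/CM at 0.647% and 1.37%, more than the cores held in all. Against the duplexes, MC/CM averaged over the core was thus not detectable, while pUC19 gave less MC/CM than the cores, 0.264% and 0.461%. At core sites with no other CpG within 50 bp, MC/CM was 3.06% and 3.49% after correction. In the shores the corrected levels were 3.13% and 3.32% for HC/CH and 0.994% and 1.37% for HM/MH. The duplexes whose true state is MM gave 4.51% HM/MH in replicate 1 and 0.467% in replicate 2, so the error behind HM/MH differed between the replicates.

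**Figure D1:**
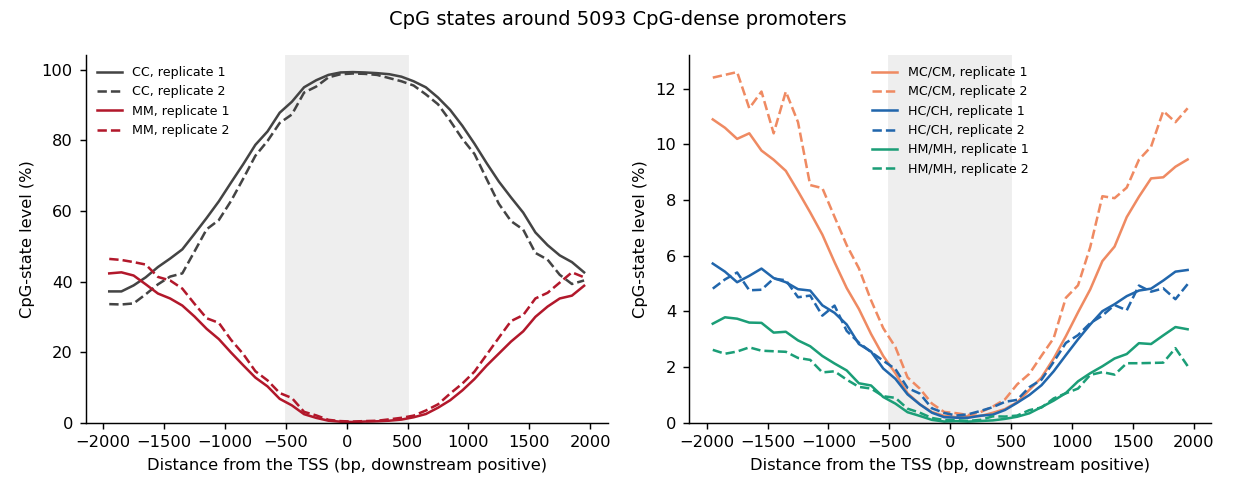
CpG-state levels in percent (y) by distance from the TSS in bp (x, downstream positive) over the 5093 CpG-dense promoters in bins of 100 bp, with CC and MM on the left and MC/CM, HC/CH and HM/MH on the right. Solid lines are replicate 1, dashed lines replicate 2, and the shaded band is the core. CC peaks just downstream of the TSS and falls on both sides, sooner upstream, while the modified states rise.

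The unmodified stretch was not centred on the TSS used here, the most upstream annotated start of each gene, and reached farther into the gene. The profile by distance was not computed with other annotated starts. From 0 to 200 bp downstream, CC was 99.2% in replicate 1 and 98.9% in replicate 2, the highest of all bins of 200 bp. Upstream, CC first fell below 90% in the bin from 500 to 600 bp in replicate 1 and from 400 to 500 bp in replicate 2. Downstream, it first did so from 800 to 900 bp in both replicates. CC first fell below 50% at 1300 and 1200 bp upstream and at 1700 and 1500 bp downstream.

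Between the 2 sides, every modified state was lower downstream. MM was 24.1% and 27.4% in the upstream shore and 15.2% and 18.2% in the downstream shore. HC/CH was 4.02% and 3.9% upstream and 2.89% and 2.98% downstream, a difference of -1.03 percentage points ± 0.142 (SD, n = 2). HM/MH was 2.41% and 1.91% upstream and 1.52% and 1.29% downstream, and after correction 1.26% and 1.68% upstream and 0.795% and 1.12% downstream. MC/CM was 6.68% and 8.23% upstream and 4.36% and 5.64% downstream. All 4 differences were negative on all 19 autosomes in each replicate (exact sign-flip permutation test, p = 3.81e-06, adjusted p = 4.40e-06).

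The size of the difference between sides depended on which TSSs were used. With the TSS of every protein-coding transcript the HC/CH difference was -0.399 points, and with only the promoters that have no other protein-coding TSS within 3000 bp it was -1.72 points. The MM difference, -9.09 points, moved in the same way to -3.72 and -14.5. Among members with 50 or more covered sites the differences were -0.683 points for HC/CH and -4.42 for MM. Among the 254 members with enough sites in each shore and replicate, HC/CH was higher upstream in both replicates in 100 (39.4%) and higher downstream in both in 65 (25.6%). The median difference of HC/CH over these 254 members was -0.46 and -0.133 points. Counting noise alone would also put some promoters on the other side in both replicates. The lean is thus stated for the average only, and these counts do not show which single promoters go the other way.

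HC/CH was the more frequent of the hydroxymethylated states in both regions. HC/CH exceeded HM/MH by 0.293 and 0.44 points in the cores and by 1.47 and 1.82 points in the shores, on all 19 autosomes in each replicate (exact sign-flip permutation test, p = 3.81e-06, adjusted p = 4.40e-06). HC/CH made up 71.2% and 70.9% of the hydroxymethylated calls in the cores and 61.3% and 66.6% in the shores. After correction these shares were 72.4% and 67.7% in the cores and 75% and 69.1% in the shores, so the lower share in the shores was not kept.

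Near the TSS, little of the DNA was modified, but a larger part of what was modified carried 5hmC. From 1800 to 2000 bp upstream, calls with 5hmC made up 15.4% and 11.6% of the modified calls. From 200 to 400 bp upstream they made up 30.3% and 29%. Downstream, the share was 16.5% and 12.1% from 1800 to 2000 bp and 30.1% and 27.6% from 400 to 600 bp. Corrected values were 10.9% and 11.2% in the outermost upstream bin and 29.5% and 34.8% from 200 to 400 bp upstream.

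The rise was already present within the shores, where the modified levels lay above the error. The margin was smallest from 500 to 600 bp downstream. There the modified level was 3.27% and 4.54% as called and 2.48% and 2.91% after correction. As called, the share was 21.6% and 18% from 500 to 1000 bp upstream and 16.6% and 12.9% from 1000 to 2000 bp. Downstream it was 25% and 22.4% in the near interval and 17.9% and 14.1% in the far one. The near interval was the higher on all 19 autosomes, on both sides, in both replicates, as called and corrected. This comparison was chosen after the values had been seen and was given no test. Inside 200 bp of the TSS the corrected shares rest on modified levels below 1% and are imprecise. From 200 to 600 bp downstream, corrected MC/CM was not above 0 and was set to 0. From 200 to 400 bp upstream, corrected MM was 10.9 and 54.4 times corrected MC/CM. The corrected shares in these bins thus hold little or no MC/CM and are also uncertain.

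**Figure D2:**
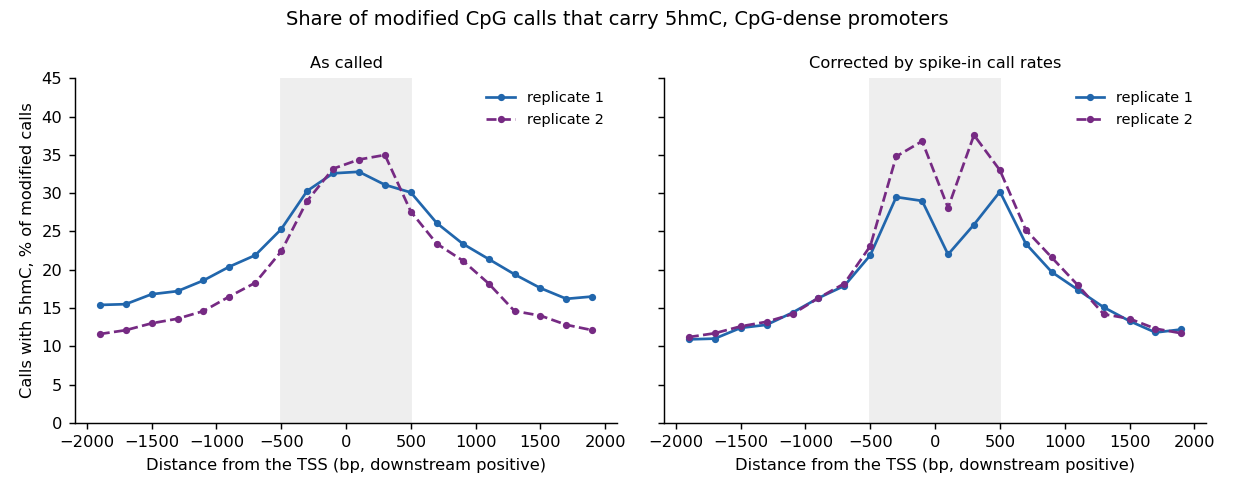
Share of modified calls that carry 5hmC, in percent (y), by distance from the TSS in bp (x, downstream positive) at CpG-dense promoters in bins of 200 bp, as called (left) and corrected by the spike-in call rates (right, negative levels set to 0). Points joined by a solid line are replicate 1 and by a dashed line replicate 2, and the shaded band is the core. The as-called share rises from 15.4% and 11.6% in the outermost upstream bin to 30.3% and 29% from 200 to 400 bp upstream, and the corrected replicates lie close together outside the core and apart within it.

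Compared with the other promoters, CpG-dense promoters had lower levels of the modified states that were tested. The core MM level was 0.998% and 1.56% in the members and 16.4% and 20.2% in the other promoters, a mean difference of -17 points ± 2.26 (SD, n = 2). Shore HC/CH was 3.38% and 3.38% in the members and 4.14% and 4.07% in the others, and shore HM/MH was 1.91% and 1.56% against 2.83% and 2.22%. These 3 differences were negative on all 19 autosomes in each replicate (exact sign-flip permutation test, p = 3.81e-06, adjusted p = 4.40e-06). The size of the differences depended on the promoters compared and on the weighting. The core MM difference ranged from -10.4 points with a threshold of 50 covered sites to -40.9 against other promoters with fewer than 30 CpG sites in the genome. The shore HC/CH difference ranged from -0.386 points with shores to 3000 bp to -1.42 with shores to 1000 bp, and the shore HM/MH difference from -0.469 when corrected to -1.41 against the CpG-poor promoters. The other promoters include many CpG-rich ones with few covered sites. The 7106 TSSs with 30 or more CpG sites in the genome but fewer covered had a core HC/CH level of 1.32% and 1.8%, and TSSs with fewer than 30 CpG sites in the genome had 4.99% and 4.72%.

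The shape differed as well as the level. From 0 to 200 bp, HC/CH was 0.182% and 0.283% at the members and 5.01% and 4.82% at the TSSs with fewer than 30 CpG sites in the genome. After correction the members had 0.0444% and 0.0706% there and the CpG-poor TSSs 4.68% and 4.84%. From 1800 to 2000 bp upstream the order was the opposite, with 5.58% and 4.98% at the members and 4.57% and 4.05% at the CpG-poor TSSs. From 1800 to 2000 bp downstream it was 5.46% and 4.71% against 4.44% and 4.01%. In the same outermost upstream bin, MM was the lower at the members, with 42.4% and 46.3% against 51.4% and 54.4%. This order of the far flanks was not tested.

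**Figure D3:**
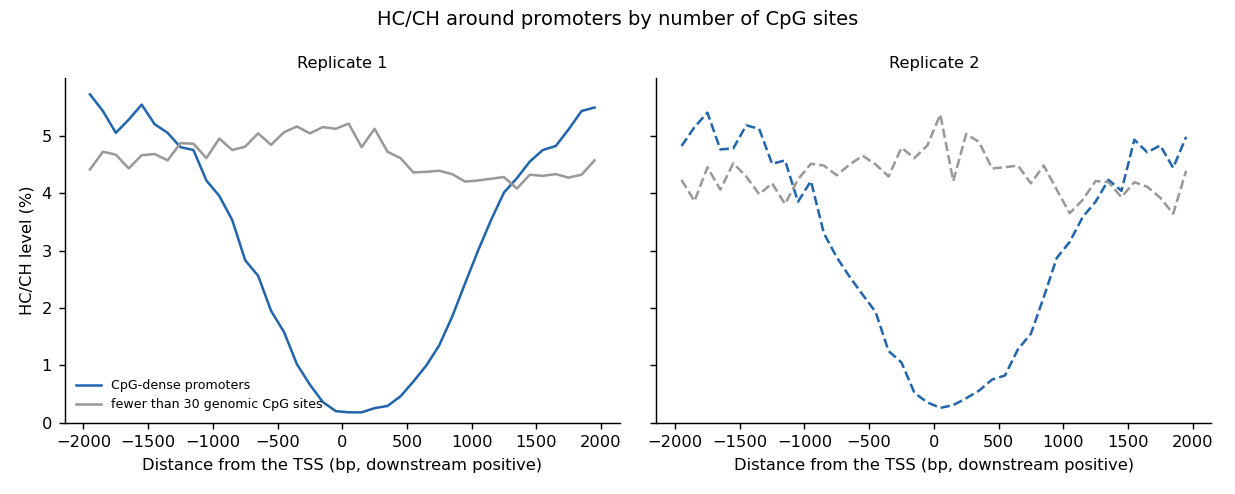
HC/CH level in percent (y) by distance from the TSS in bp (x, downstream positive) in bins of 100 bp for CpG-dense promoters and for TSSs with fewer than 30 CpG sites in the genome sequence, with replicate 1 on the left and replicate 2 on the right. Levels are as called. The CpG-dense line falls to 0.182% and 0.283% from 0 to 200 bp (0.0444% and 0.0706% after correction), where the CpG-poor line is at 5.01% and 4.82%, and lies above it in the outermost bins.

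Among the members themselves, modification fell as the number of CpG sites rose. Core HC/CH was 1.05% and 1.34% in the 533 members with 30 to 44 CpG sites in the genome, and 0.153% and 0.267% in the 477 members with 100 or more. The latter values lie near the error on CC duplexes and were 0.0133% and 0.053% after correction, against 0.9% and 1.18% in the class of 30 to 44. They lie above the HC/CH level of pUC19, 0.0344% and 0.0859%. Corrected core MC/CM in the class of 100 or more was below 0, at -0.423% and -1.08%, so its corrected HC/CH level is uncertain. Core MM fell from 3.14% and 3.77% to 0.198% and 0.377% between the same classes. Shore CC rose from 60% and 55.1% to 80.5% and 76.4%. Across the threshold of the rule, the 1907 TSSs with 25 to 29 covered sites had a core HC/CH level of 1.13% and 1.5%, and the 1599 members with 30 to 34 had 0.732% and 1.07%.

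The same held for the CpG sites next to the TSS. The 263 members with fewer than 10 CpG sites from 250 bp upstream to 49 bp downstream, among which 157 had at least 10 covered core sites in each replicate, had a mean core CC level of 92.9% and 90.8%. The 569 such members with 30 or more CpG sites in that window had 99.1% and 98.7%. Core CC was below 90% in both replicates in 95 of 3050 members, and these had a median of 13 CpG sites in the window, against 21 over all 3050.

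At the level of single sites, MM, MC/CM and HC/CH fell from class to class with the number of CpG sites within 50 bp in each region and replicate. Corrected HM/MH in the shores did not fall between the classes of 1 and of 2 to 3 sites. It went from 1.38% and 1.91% to 1.53% and 1.94% upstream, and from 1.03% and 1.37% to 1.1% and 1.45% downstream. In the upstream shore, HC/CH was 5.01% and 4.64% at CpG sites with no other CpG within 50 bp, 3.25% and 3.15% at sites in groups of 4 to 6, and 0.269% and 0.469% in groups of 11 or more. The downstream shore had 4.36% and 3.85%, 2.52% and 2.47%, and 0.235% and 0.36%. MM was lower downstream than upstream in each class up to 7 to 10 sites in both replicates, for example 28.1% and 31.4% against 35.9% and 39.5% at isolated sites. The core lay below both shores at the same local number, with 2.64% and 2.9% HC/CH at isolated sites.

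**Figure D4:**
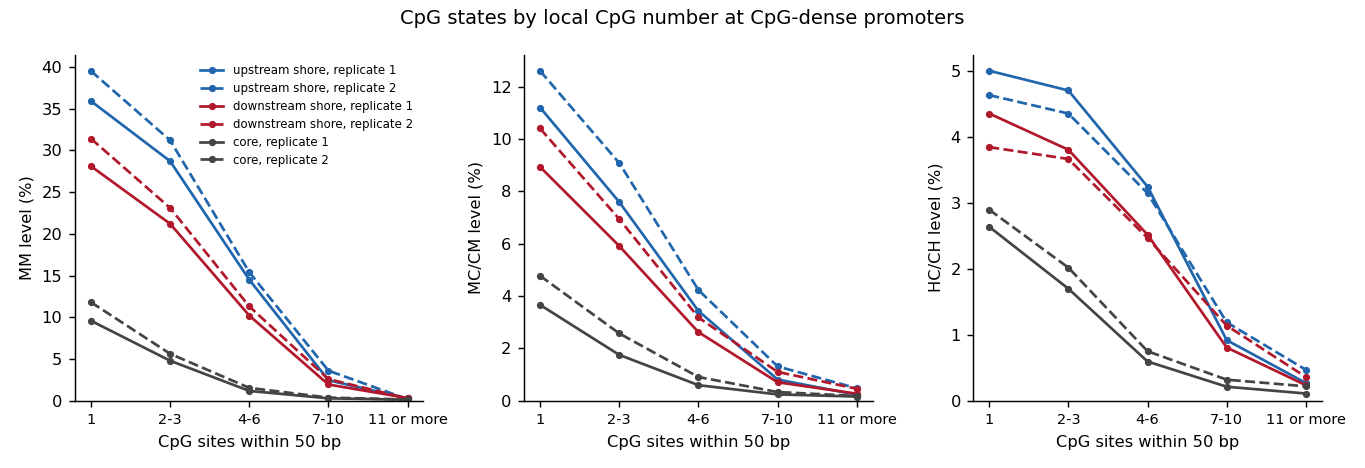
MM (left), MC/CM (middle) and HC/CH (right) levels in percent (y) by the number of CpG sites within 50 bp, the site itself included (x), at CpG-dense promoters. Blue is the upstream shore, red the downstream shore and dark grey the core, with solid lines for replicate 1 and dashed lines for replicate 2. All 3 levels fall with the local number of CpG sites, and the core lies lowest at isolated sites.

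CpG sites in annotated exons were less modified than those outside. Distance from the TSS and the local number of CpG sites, with which the levels varied, were not held equal between them. In the cores, HC/CH was 0.261% and 0.44% in exons and 0.671% and 0.963% outside, and in the downstream shore it was 2.52% and 2.66% against 3.11% and 3.15%. With only the sites outside exons, the difference between the downstream and the upstream shore in HC/CH was -1.08 points, against -1.03 at all sites.

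Sequence motifs of promoters were counted in the same window of 300 bases, on both strands. The GC box GGGCGG, the binding motif of SP and KLF factors, was present in 64.5% of the members, 38.3% of the other promoters and 43.7% of all promoters. The ETS-type motif CCGGAAG was present in 23.6% of the members and 11% of all, the cyclic AMP response element TGACGTCA in 4.65% and 2.43%, the E box CACGTG in 11.5% and 7.82%, CCAAT in 42.4% and 38.6%, and the NRF1-type motif CGCATGCG in 4.87% and 2.33%. TATAAA, the TATA box, was less frequent in the members, at 6.07% against 12.7% of all promoters. The rule selects CpG-rich DNA, so these shares describe the members and show nothing about the factors.

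Among the 3050 members with at least 10 covered core sites in each replicate, those with TATAAA, 194 in number, had a mean core HC/CH level of 0.744% and 1.03%, against 0.456% and 0.618% in the 2856 without it. The 780 with CCGGAAG had 0.326% and 0.408%, against 0.526% and 0.725% without. Of the other motifs counted, the E box went with higher levels, 0.508% and 0.736% against 0.47% and 0.631%. The rest went with lower levels in both replicates, for example 0.283% and 0.445% against 0.485% and 0.654% for the cyclic AMP response element. The number of CpG sites in the window was not held equal. Core HC/CH was 1.3% and 1.58% with fewer than 10 CpG sites there, and 0.208% and 0.326% with 30 or more. These values are descriptions and were given no test.

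The strand that carried the modification differed little. In the downstream shore, 5hmC of the HC/CH state lay on the coding strand in 1.47% and 1.52% of calls and on the template strand in 1.42% and 1.45%. The difference was 0.0529 and 0.0726 points, positive on 13 and 15 of 19 autosomes (exact sign-flip permutation test, adjusted p = 0.0457 and 0.00251). Hemimethylation of the MC/CM state was 2.25% and 2.92% on the coding strand and 2.1% and 2.72% on the template strand, positive on 16 and 14 of 19 autosomes (exact sign-flip permutation test, adjusted p = 3.05e-04 and 2.70e-03). Both calls were lost under several alternatives (exact sign-flip permutation test, adjusted p = 0.319 for HC/CH at a minimum of 10 calls per site and 0.261 for MC/CM with promoters weighted equally). The HC/CH difference changed sign among members with at least 50 covered sites. Other values leaned to the template strand and were not tested. HC/CH gave -0.0846 and -0.13 points in the upstream shore and -0.0178 and -0.0273 in the core. MC/CM gave -0.0739 and -0.276 points in the upstream shore, with the template strand higher on 11 and 15 of 19 autosomes, and -0.0244 and -0.0299 in the core. HM/MH in the downstream shore gave -0.0256 and -0.0644 points, with the template strand higher on 13 and 15 of 19 autosomes, so both states did not lean to the same strand there.

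Single promoters were compared between replicates where at least 10 core sites were covered in each, which held for 3050 members. Their core CC level had a median of 99.2% in replicate 1 and 99% in replicate 2, and 2381 of them (78.1%) were at 95% or more in both. Spearman's correlation between the replicates over these promoters was 0.618 for core CC, a description over regions that share libraries. In the shores, over 2455 members, it was 0.865 for CC, 0.511 for HC/CH and 0.389 for HM/MH. Shore HC/CH ranged from a 10th percentile of 1.07% through a median of 3.11% to a 90th percentile of 6.33% in replicate 1.

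Mostly modified cores were rare. Core CC was below 50% in both replicates in 3 of the 3050 members (0.0984%). Among the other promoters with at least 10 covered core sites in each replicate it was so in 107 of 1404 (7.62%), and in 110 of the 4454 in all (2.47%). The other promoters had at most 29 covered sites, so coverage was not matched between the groups. The 3 members were Hcar2, Mrap and Fv1. They form no group by function, and the count moves with the settings, for example to 48 with a threshold of 20 covered sites.

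Hcar2 (ENSMUSG00000045502.6, TSS at 123865499 on chromosome 5, minus strand) was mostly methylated in its core, with MM at 75.3% and 78.2% and CC at 9.32% and 5.98%. These rest on 271 MM calls of 354 in replicate 1 (76.6%, exact 95% interval 71.8% to 80.9%) and 68 of 88 in replicate 2 (77.3%, 67.1% to 85.5%). Intervals cover counting error only and treat the calls as independent. A DNA fragment can give calls at several CpG sites, so they can be too narrow. Its shores had 67.9% and 79.2% MM, so the step from core to shores seen in the average member was not present at Hcar2.

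Mrap (ENSMUSG00000039956.9, TSS at 90738207 on chromosome 16, plus strand) had a core MM level of 65.5% and 65.1%. Unlike the average member, its core was more modified than its shores, where MM was 38% and 44.7%, although only 6 shore sites were covered in replicate 2. Core HC/CH was 5.61% and 6.87% and core HM/MH 8.01% and 5.72%, all above the mean of the members' shores.

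Fv1 (ENSMUSG00000070583.1, TSS at 147868979 on chromosome 4, plus strand), a retroviral restriction factor, had a core MM level of 53.8% and 40.3%. The Miip TSS lies at 147868816 on the minus strand, so that the cores of both overlap and its core MM level of 49.4% and 30.2% is not a separate observation. The methylation was uneven around this pair. MM was 82.7% and 82.8% in the shore downstream of Fv1 and 29.9% and 20.9% in its upstream shore. Both shores together held only 24 and 13 covered sites.

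The next levels of core MM were much lower. Hspb3, a small heat shock protein, had 22.6% and 23.1%, and Hormad1, a protein of the meiotic chromosome axis, had 28.2% and 16.5%. Spdye4b, Gm26566, Gm4969 and St8sia6 lay between 14% and 25.7% in the 2 replicates. In all 6 of these promoters MM was the minority of the core calls.

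Calhm6 (ENSMUSG00000046031.7, TSS at 34127984 on chromosome 10, minus strand) had the highest core HC/CH level when members were ranked on the lower replicate, with 7.3% and 6.13%. In calls this was 18 of 217 in replicate 1 (8.29%, exact 95% interval 4.99% to 12.8%) and 9 of 170 in replicate 2 (5.29%, 2.45% to 9.81%). It also had the highest shore HC/CH level, 10.7% and 10.9%. Its core CC level was 78.9% and 75.6%.

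Hormad1 had a core HC/CH level of 9.29% and 5.63%, from 23 of 288 calls and 4 of 73. Rhcg, an ammonium transporter, had 6.52% and 5.99%, from 20 of 321 calls and 10 of 158. Rhcg had a core MM level of only 4.67% and 5.49%, so that HC/CH was at least as frequent as MM in its core.

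Scrn1 had a core HC/CH level of 4.95% and 7.01%, with MM at 2.55% and 6.49%. Scnn1g, the gamma subunit of the epithelial sodium channel, had 4.78% and 13.3%. Hoxa3, a homeobox transcription factor, and Gm28308 share a TSS region and had 4.59% and 6.92%. The intervals of these promoters overlap widely in replicate 2, where their cores held 61 to 73 calls, so their order is not fixed by the data.

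**Figure D5:**
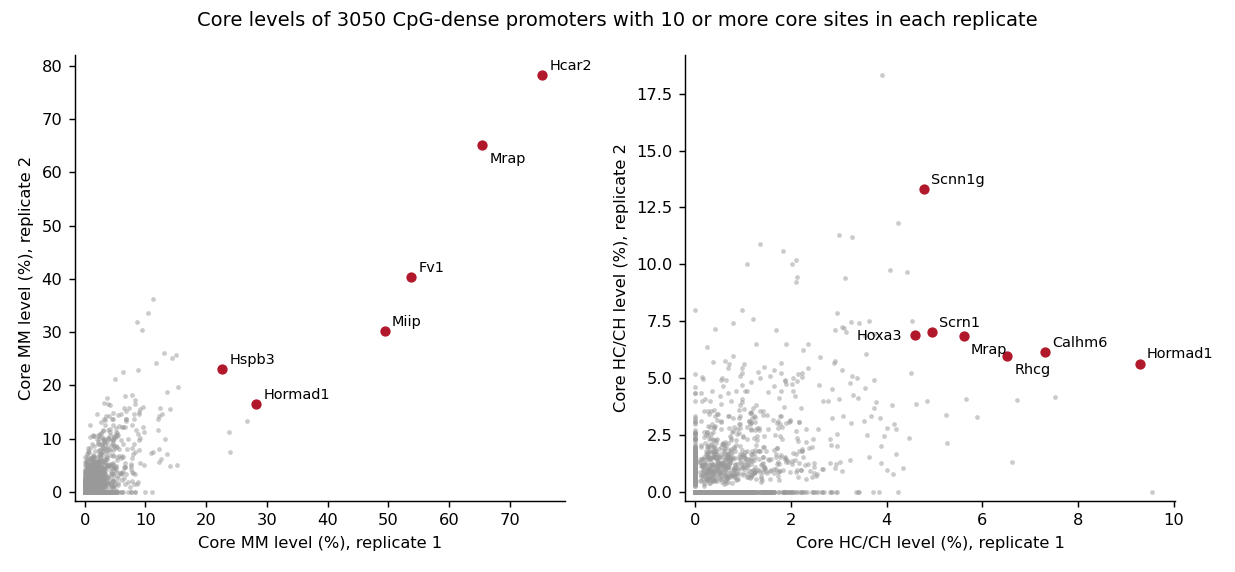
Core MM level (left) and core HC/CH level (right) in percent in replicate 1 (x) and replicate 2 (y) for the 3050 CpG-dense promoters with at least 10 covered core sites in each replicate, 1 point per promoter. Named promoters are red. Hcar2, Mrap, Fv1 and Miip stand apart from the mass of promoters near 0 in MM, while HC/CH reaches 9.55% in replicate 1 and 18.3% in replicate 2, and Calhm6, at 7.3% and 6.13%, is highest on the lower of its 2 values.

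In the shores, HC/CH after Calhm6 was highest at Plce1, a phospholipase C, with 10.1% and 11.8%, from 49 of 517 calls and 13 of 134. Its core was 97.6% and 100% CC. Trim65, an E3 ubiquitin ligase, had 9.76% and 16.6%, and Fam89a, Irs3, Grhl3, Ggnbp1 and Sertad4 lay between 8.85% and 11.8%. Apart from Calhm6 and Irs3, all of these had a core CC level of at least 94.9% in both replicates, so high HC/CH was found beside unmodified cores.

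Shore HM/MH was highest at Mfsd6l, with 9.91% and 13.5%, followed by Hspb3 with 9.7% and 8.57%. Otulinl, Tnfrsf13c (the receptor for BAFF) and Aebp1 lay between 6.15% and 8.81%. The shores of Mfsd6l and Hspb3 were largely methylated, with MM at 53.3% and 52.5% and at 56.6% and 63.3%. These HM/MH levels are as called, and duplexes whose true state is MM gave 4.51% and 0.467% HM/MH. Part of the HM/MH in such shores can thus be miscalled MM, mainly in replicate 1.

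Typical members, those nearest to the median core CC and shore HC/CH levels, were Cry1, Mitd1 and Wdr83os. Cry1 had a core CC level of 99.6% and 99.3% and a shore HC/CH level of 3.2% and 2.85%. Its HC/CH lay mainly on the upstream side, with 7.61% and 9.71% there and 1.65% and 0.481% downstream.

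Genes of 7 functional lists were looked up among the members. Their counts of cores with 95% CC or more in both replicates are given beside the 78.1% of all members with enough core sites, with no test. Of 50 genes of cytoplasmic ribosomal proteins, 31 were members, 23 of them had enough core sites, and 19 of these 23 had a core CC level of at least 95% in both replicates, near the 78.1% of all members. Their median shore HC/CH level was 1.67% and 0.614%, and over all members it was 3.11% and 2.83%. The core of Rpl9 was 100% CC in both replicates.

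Of 20 housekeeping genes, 10 were members and all 7 with enough sites had cores at 95% or more, beside 78.1% of all members. In Actb, which encodes cytoplasmic actin, CC was 98.6% and 96.7% in the core, and shore HC/CH was 0.679% and 1.26%. The sides differed in both directions in this list. Eif4a1, a translation initiation factor, had HC/CH at 10.1% and 4.17% in the upstream shore and 0% downstream in both replicates. Psmb4, a proteasome subunit, had 4.04% and 0% upstream and 9.35% and 5.77% downstream. Psmb4 had only 22 and 17 covered shore sites over both sides together. No minimum per side was set here, so its order of sides is uncertain. Tbp, the TATA-binding protein, had CC at 90.5% and 86.6% upstream and 76.1% and 74.9% downstream.

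Of 20 pluripotency regulators, 8 were members, and all 4 with enough sites (Klf2, Tfcp2l1, Zfp281 and Utf1) had cores at 95% or more, beside 78.1% of all members. Utf1, a chromatin factor of undifferentiated stem cells, had a downstream shore CC level of 99.4% and 99.2% and an upstream one of 48.6% and 56.9%. Tfcp2l1, a transcription factor of naive pluripotency, had a shore HC/CH level of 5.59% and 5.71%, on 23 and 7 covered sites.

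Of 40 developmental transcription factors with bivalent promoters, 13 were members and 7 of the 10 with enough sites had cores at 95% or more, beside 78.1% of all members. Pax3, which is needed in the neural crest and in muscle, had a core CC level of 98.1% and 93.8% and a shore HC/CH level of 3.63% and 5.8%. Olig2, a factor of oligodendrocyte and motor neuron precursors, had 98.8% and 96% core CC. Sox17, an endoderm factor, had the lower core CC level of 92.4% and 75.8%.

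Of 14 TET dioxygenases, DNA methyltransferases and partners, 3 were members, and both with enough sites had cores at 95% or more, beside 78.1% of all members. Mbd3, a subunit of the NuRD complex, had 100% and 98.8% core CC, and Mbd4, a DNA glycosylase, had 99.5% and 99.4%. Tet1, Tet2, Tet3, Dnmt1, Dnmt3a and Dnmt3b were not among the members.

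Among imprinted and germline genes, none of the members with enough core sites reached 95% core CC in both replicates. Of 16 imprinted promoters at germline differentially methylated regions, 6 were members with enough sites, and 0 of 6 had a core CC level of 95% or more in both replicates. Their median core CC level was 91.2% and 90.9% and their median core HC/CH level was 0.289% and 0.185%. Zrsr1 had 91.8% and 94.8% core CC with 6.69% and 4.73% MM, Peg10 had 92.9% and 98.6%, and Mcts2 had 95.9% and 94.2%. Nap1l5 had 88.8% and 64.3%, a difference between the replicates that is read on 10 covered sites in replicate 2. None of the 6 was below 50% in both replicates.

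Of 30 germline and meiosis genes, 5 were members, 3 of them had enough sites (Hormad1, Tdrkh and Smc1b), and 0 of 3 were at 95% or more in both replicates. Tdrkh, a piRNA pathway protein, had a core CC level of 86.9% and 97.2%, and Smc1b, a meiotic cohesin subunit, had 92.4% and 86.9%. With 78.1% of all members at 95% or more in both replicates, the counts of the 2 lists at 0 rest on 9 promoters in all.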

How the data were processed

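The authors sequenced SCoTCH-seq libraries of E14 cells and deposited, for each replicate, 1 table with a whole-number count of calls per CpG state and CpG site, and a percent value that is this count over the depth at the site. Deposited sites had at least 5 calls. The submitters' processing notes name cutadapt 4.6, Picard 3.1.1 and mm10. All 14072448 deposited positions on the autosomes and X fell on the C of a CpG of GRCm38.p6, and the spike-in positions were kept apart.

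Levels were recomputed from the counts as means over CpG sites of the percentage of calls per state, within 500 bp of the TSS and from 500 to 2000 bp, by side and strand of the gene (GENCODE vM21). Corrected levels solve the 9 linear equations given by the call rates of the replicate's own spike-in duplexes. Each of 15 comparisons was tested per replicate by an exact two-sided sign-flip permutation test over 19 autosomes. Benjamini-Hochberg adjustment ran over the 30 tests, and a call needed an adjusted p under 0.05 and the same sign in both replicates. These tests measure the spread between autosomes of a library, not between cultures. Intervals are exact (Clopper-Pearson), and with the limit of 3 counts for a count of 0 they cover counting error only. Both take calls as independent, although calls at neighbouring CpG sites can come from the same fragment. The spread between the 2 replicates is given as SD. The study's replicates came from different passages of the line and are called independent there, while the labels say nothing of separate cultures. This spread can hold differences between passages as well as technical ones, and these cannot be told apart. Scripts were tested on simulated data. Versions were Python 3.11.15, NumPy 2.4.6, pandas 2.3.3, SciPy 1.17.1, pysam 0.24.0, samtools 1.23.1 and Matplotlib 3.10.9.

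Members and gene lists were chosen with earlier results of these data known. Promoters were named by rank on the lower replicate, given 10 covered sites in each replicate: 10 for core MM, 8 for core HC/CH, 8 for shore HC/CH, 5 for shore HM/MH, 3 nearest to the medians, and the first 4 of each gene list that met the minimum. Alternatives covered the correction, coverage, weighting, the CpG threshold, the TSS set, region widths, exons and each replicate left out. CpG sites counted in the genome sequence, and a narrower set of other promoters, were added after the data had been seen.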

Additional observations from a re-analysis of the deposited data

Results flagged for a closer look

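The comparisons used autosomes only, and 6 X-linked TSSs met the same threshold of covered CpG sites. Their shores carried HC/CH at 1.37% in replicate 1, over 940 calls at 115 sites, and at 2.98% in replicate 2, over 98 calls at 16 sites. Both values are above the HC/CH level of unmethylated pUC19 DNA, 0.0344% and 0.0859%, which is why they are listed. Core CC at these TSSs was 96.1% and 93.2%. With 6 promoters, no comparison with the autosomes was made.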

How the results depend on the processing

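Over 16 results and 17 alternatives, 236 of 256 values were kept. A kept value had the same direction and side of the threshold or, for the count of mostly modified cores, lay within 1.5 times of it. Some of these values could not move. A narrower core leaves comparisons within the shores unchanged, and other shore widths leave comparisons of cores unchanged. For the comparisons, leaving out 1 replicate repeats the value of the other, which the call already required. Every comparison of shores with cores, of the 2 sides, of HC/CH with HM/MH and of CpG-dense with other promoters kept direction and call under all alternatives run. Exceptions were the strand differences and the count of mostly modified cores, and the cause was not tested. The strand difference in HC/CH, 0.0627 points, lost its call when corrected (0.0632), at 10 calls per site (0.107), with promoters weighted equally (0.0503), at sites covered in both replicates (0.0772), in shores of 500 to 1000 bp (0.0491) and outside exons (0.0951), and was -0.0129 among promoters with 50 or more covered sites. That in MC/CM, 0.178 points, lost its call at 10 calls per site (0.258), with equal weights (0.173), at 50 or more sites (0.127), without neighbouring TSSs (0.156) and in shores of 500 to 1000 bp (0.101). The count of cores with CC below 50%, 3 of 3050, was 5 of 2239 at sites covered in both replicates, 48 of 4183 at a threshold of 20 sites, 0 of 573 at 50 sites, 7 of 7301 with transcript TSSs, 1 of 1054 outside exons and 10 of 4160 with CpG sites counted in the genome, and between 3 and 8 with a replicate left out (8 of 5093 without replicate 2). At 10 calls per site it was 0, but only 7 promoters kept enough sites. No paired analysis was possible because both samples belong to 1 group. Depth limits single promoters most in replicate 2, at a mean of 6.18 calls per core site.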
